A study of Mus musculus with 10 samples.

Results

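BAF complexes, the mammalian SWI/SNF chromatin remodelers, use ATP to slide or evict nucleosomes and so set which stretches of DNA transcription factors can reach. The canonical and polybromo forms each hold 1 ATPase (SMARCA4 or SMARCA2), a scaffold of SMARCC1 and SMARCC2, and a large DNA-binding ARID subunit that gives the assembly its identity, while a non-canonical form carries no ARID subunit. ARID1A or ARID1B defines the canonical form, while ARID2, PBRM1 and BRD7 define the polybromo form (PBAF). Paralogs can take each other's place, so the level of Arid1a is of interest where Arid1b is lost, and in developing cortex the composition of these assemblies changes as progenitors become neurons.

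Here the 9 genes that encode these subunits (Arid1a, Arid1b, Arid2, Pbrm1, Brd7, Smarca2, Smarca4, Smarcc1 and Smarcc2) were examined out of 18216 genes in the deposited table. They were chosen by name, and all 9 were present and passed the filter on low values. The data were RNA-seq of prefrontal cortex from 10 male C57BL/6N mice at postnatal day 10, with 1 library per mouse, 5 from Arid1b heterozygotes (HT1 to HT5) and 5 from wild-type mice (WT1 to WT5). The labels name no treatment, and the heterozygotes carried in every cell of the body a Cas9-made mutation of exon 5 on 1 copy of Arid1b, passed on from heterozygous fathers crossed with wild-type mothers. The study's methods give the mutation as a deletion whose interval encloses exon 5, with TT inserted in its place, while elsewhere the study describes a protein-truncating insertion of TT at the start of that exon, and the sequences here follow the methods. Values are normalised counts, the estimated reads of a gene divided by a size factor per library, and the depth behind them is unknown because whole reads could not be recovered.

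The 7 markers of cortical projection neurons used here (Slc17a7, Neurod6, Tbr1, Fezf2, Cux2, Neurod2 and Emx1) had values in all mice. Their summed level ranged from 51401 to 68632 in HT and from 56797 to 70371 in WT. All 9 markers of striatal neurons were also above 0, with sums of 7528 to 22863 in HT and 6526 to 18044 in WT, so the level of striatal markers varied between mice of the same genotype. The 8 astrocyte markers summed to 49776 to 73762 in HT and 45177 to 52044 in WT, with the highest astrocyte marker scores (mean z-score of the list) in HT5 (1.55) and HT2 (1.49). Of these 8 markers 6 had an unadjusted limma p under 0.05, where 9.23% of all genes tested did. None passed the adjusted threshold, and their median log2 fold change was 0.23. The part of this in the values of the members was examined only with the covariate and omitted mice described for them. In bulk tissue, fewer cells of a type and less RNA per cell cannot be told apart.

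The mutated exon is shown because by the methods it is what the mutant allele lacks. Exon 5 of Arid1b (ENSMUSG00000069729, chromosome 17, 4994332 to 5347656, plus strand) lies at chr17:5242828-5243071 in GRCm38. It is an exon of all 4 protein-coding transcripts of the gene in the GENCODE M21 annotation, and it makes up 1.94% of the gene's exonic length of 12600 bases. Its 244 bases read as follows.

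Arid1b exon 5: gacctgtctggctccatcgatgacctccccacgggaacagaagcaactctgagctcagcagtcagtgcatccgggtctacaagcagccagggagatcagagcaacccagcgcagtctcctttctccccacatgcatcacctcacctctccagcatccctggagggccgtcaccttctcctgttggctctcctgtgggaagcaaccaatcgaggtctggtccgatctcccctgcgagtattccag

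Since 244 is not a multiple of 3, joining exon 4 to exon 6 shifts the reading frame. In the annotated transcript with 19 exons, the join leaves 60 bases of exon 6 before a stop codon, and the open reading frame drops from 2243 to 693 codons. The join is printed below from the last 30 bases of exon 4 to that stop, which is in capitals. This is a reading of the annotation; whether transcripts of the mutant allele are spliced in this way was not measured here.

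Arid1b exon 4 joined to exon 6: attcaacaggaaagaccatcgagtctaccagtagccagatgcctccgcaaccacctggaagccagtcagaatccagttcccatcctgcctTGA

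The comparison of paralogs depends on whether their reads can be told apart, and the longest identical stretch between the longest coding transcripts of each paralog pair is therefore shown. It was 29 bases for Arid1b and Arid1a, 20 bases for Smarca2 and Smarca4, and 26 bases for Smarcc1 and Smarcc2.

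Arid1b and Arid1a: tggcttaatgaatatcatttattcagtat

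Smarca2 and Smarca4: atgttggccaggggccagcc

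Smarcc1 and Smarcc2: caaatgaagaaactagagatcaaact

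No word of 31 bases was shared between any of the 9 genes. Words shared with genes elsewhere made up between 0% (Smarcc2) and 4.60% (Smarcc1) of a member's words, with 2.52% for Arid1a and 0.182% for Arid1b. A stretch of that length can thus match no more than 1 of the 9 genes exactly.

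Arid1b was the single member whose level differed between genotypes. The heterozygotes had normalised counts of 1938, 1767, 1987, 1849 and 1929 (HT1 to HT5), and the wild types 3018, 2807, 2775, 2949 and 2662 (WT1 to WT5). Every HT value lay below every WT value, and each group was tight, with a coefficient of variation of 4.57% in HT and 4.99% in WT. The log2 fold change was -0.59 (SE 0.05, limma adjusted p 9.96e-05, n = 5 per genotype). As a share of WT, the fitted HT level was 66.7%, with a 95% interval from 62.0% to 71.6%. The table does not separate the alleles, so the output of each copy was not measured. Across all 16781 genes tested (mean of at least 10), 0.0179% passed the adjusted threshold of 0.05, 9.23% had an unadjusted p under 0.05 and 1.62% had groups without overlap. Among the 9 members, 1 passed, and the same 1 was alone in having an unadjusted p under 0.05 and in having groups without overlap.

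**Figure D1:**
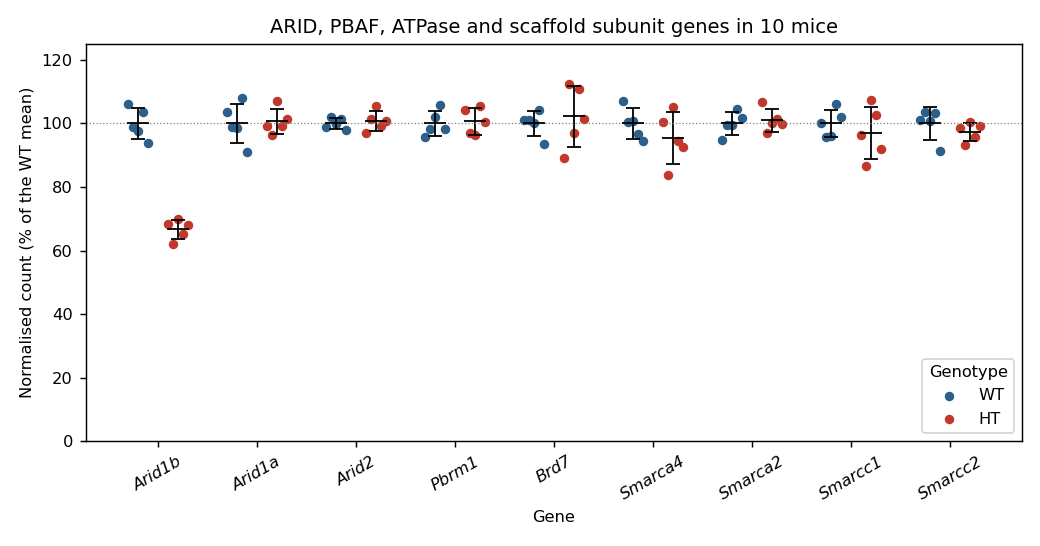
Normalised count of each member in each mouse as a percentage of the WT mean of that gene, WT in blue and HT in red, 5 mice each, with black bars for the mean and SD. Arid1b lies near 66.6% in HT without overlap with WT, while the HT and WT values of the other 8 genes overlap.

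The next question was whether Arid1a, the closest paralog and the alternative ARID subunit of canonical BAF, was higher where Arid1b was lower. Arid1a (ENSMUSG00000007880, GRCm38 chromosome 4, 133679008 to 133756769, minus strand) had 4553, 4425, 4911, 4556 and 4653 in HT1 to HT5, and 4750, 4538, 4526, 4955 and 4181 in WT1 to WT5. The HT values all lay inside the WT range. The log2 fold change was 0.01 (SE 0.05, limma adjusted p 0.952), with a 95% interval of -0.10 to 0.12, that is from 93.6% to 108.5% of the WT level.

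The size of increase that would make up for the loss can be computed once both genes are put on a common scale of normalised counts per kilobase of exon. Per kilobase, WT mice had 399.9 ± 25.1 (SD, n = 5) for Arid1a and 225.6 ± 11.2 (SD, n = 5) for Arid1b, so Arid1b made up 36.1% ± 0.64 of the summed level of the pair. In HT mice Arid1b was at 150.3 ± 6.87 (SD, n = 5) and made up 27.2% ± 0.50. The share ran from 26.7% to 27.9% in HT and from 35.2% to 36.7% in WT, far apart. Its size depends on the length taken: with the longest coding transcript it was 22.9% in HT and 30.9% in WT. The summed level was 552.9 ± 21.9 (SD) in the 5 HT mice against 625.5 ± 35.6 (SD) in the 5 WT mice, or 88.4% of WT. These sums overlapped at the edge, since HT3 (585.6) lay above WT5 (575.7). From the group means, Arid1a would have had to be 18.8% higher in HT to bring the sum back to the WT mean, or 14.9% higher when the longest coding transcript was used as the length. Both figures lie above the upper bound of the measured interval for Arid1a, 108.5% of WT. They come from group means and have no interval of their own. An increase that made up part of the loss could lie within the measured interval, and protein was not measured here.

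**Figure D2:**
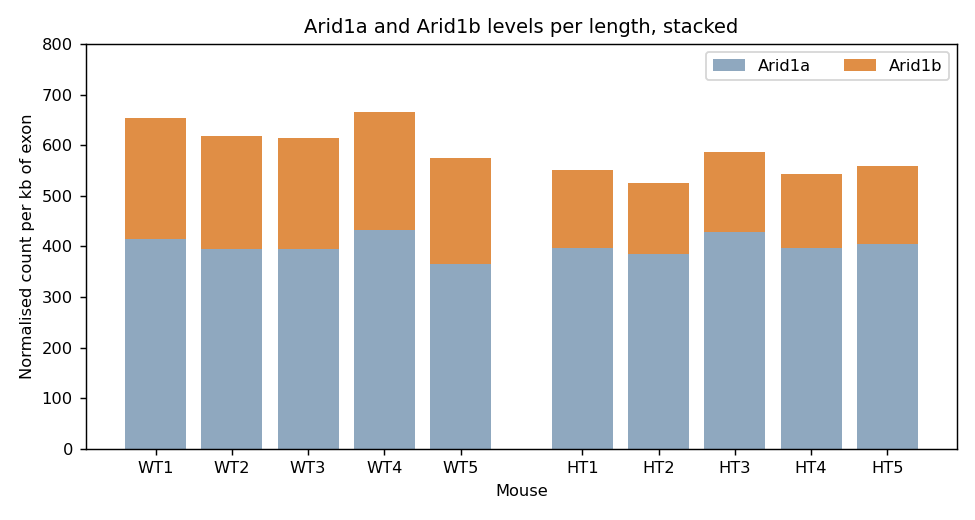
Stacked bars of Arid1a (grey-blue) and Arid1b (orange) in normalised counts per kilobase of exon for each of the 5 WT and 5 HT mice. The Arid1a part is of like height in both genotypes, from 364.3 to 431.7 in WT, and the Arid1b part is shorter in every HT mouse.

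The ratio of Arid1b to Arid1a within each mouse compares the responses of both genes. A fall of Arid1b alone lowers this ratio, and a rise of Arid1a would lower it further, so it cannot tell whether Arid1a rose. The log2 ratio of normalised counts was -1.29 ± 0.036 (SD, n = 5) in heterozygotes against -0.69 ± 0.040 (SD, n = 5) in wild types, without overlap. The difference was -0.60 (SE 0.024), with a 95% interval of -0.65 to -0.54 from inverting the exact permutation test. Its exact two-sided permutation p was 0.00794, the smallest that 5 against 5 mice can give, and 0.0397 after adjustment over the 5 pairs of genes compared.

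Within a genotype the levels of both paralogs varied together from mouse to mouse. Both were lowest among HT mice in HT2 and highest in HT3, and both were lowest among WT mice in WT5. After subtraction of each genotype's mean, Pearson's r between the log2 values of Arid1a and Arid1b was 0.865 over the 10 mice (exact permutation within genotype, p = 0.00313) and Spearman's rho was 0.806 (exact permutation p = 0.0107). Of the 36 pairs of members it had the highest r, but it did not pass adjustment over the 36 pairs (adjusted exact permutation p 0.107 for r and 0.275 for rho). Without the 2 mice farthest from the median of Arid1a, r was 0.872, and it was 0.842 among HT and 0.905 among WT mice. High r was not limited to the paralogs: it was 0.824 for Arid1a with Smarcc2, and 0.772 for Arid1b both with Smarca4 and with Smarcc2. All genes of a library share its size factor, and the part of this in these correlations was not tested.

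**Figure D3:**
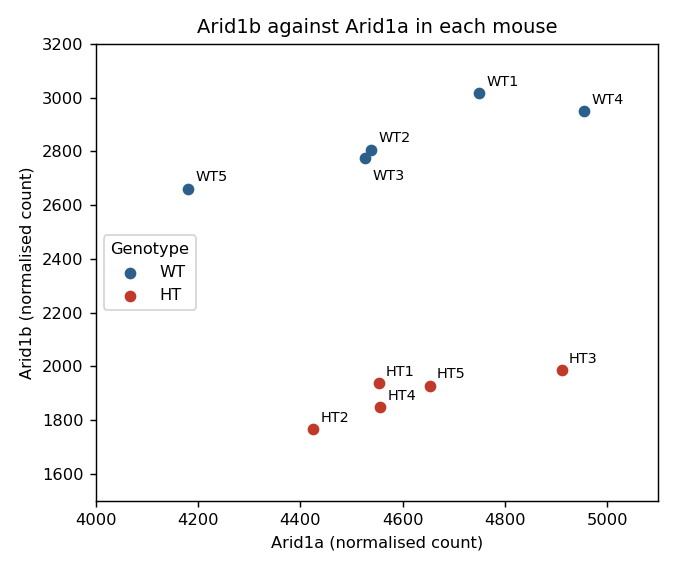
Normalised count of Arid1b against that of Arid1a, 1 point per mouse, WT in blue and HT in red (both axes start above 0). The HT points form a separate lower band, from 1767 to 1987 for Arid1b, with Arid1a values inside the WT range, and within each genotype mice with more Arid1a tend to have more Arid1b.

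The genes of PBAF, which carries neither ARID1A nor ARID1B, were then examined. Arid2 (ENSMUSG00000033237, chromosome 15, 96287518 to 96404992, plus strand), whose product is the ARID subunit of PBAF, had 2000, 2093, 2178, 2045 and 2079 in HT1 to HT5 and 2038, 2104, 2062, 2092 and 2022 in WT1 to WT5. Its coefficient of variation was 3.17% in HT and 1.69% in WT, and the log2 fold change was 0.01 (SE 0.04, limma adjusted p 0.942, 95% interval -0.07 to 0.095). Pbrm1 (ENSMUSG00000042323, chromosome 14, 31019138 to 31121592, plus strand), which encodes polybromo with its array of acetyl-lysine-binding bromodomains, ran from 2196 to 2412 in HT and from 2184 to 2416 in WT. These ranges nearly coincide, and the log2 fold change was 0.01 (SE 0.04, limma adjusted p 0.953, 95% interval -0.09 to 0.11). Brd7 (ENSMUSG00000031660, chromosome 8, 88331039 to 88362194, minus strand), a bromodomain subunit of PBAF, had 1461, 1843, 1588, 1815 and 1663 in HT1 to HT5 against 1530 to 1707 in WT. HT mice lay on both sides of the WT range, with a coefficient of variation of 9.50% against 3.99%, and the log2 fold change was 0.03 (SE 0.06, limma adjusted p 0.903, 95% interval -0.11 to 0.16).

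Neither ATPase gene differed beyond the spread between mice. Smarca4 (ENSMUSG00000032187, chromosome 9, 21616169 to 21704230, plus strand), which encodes BRG1, had 6220, 5174, 6501, 5841 and 5717 in HT1 to HT5 and 6628, 6220, 6236, 5975 and 5847 in WT1 to WT5. HT2, HT4 and HT5 lay below all WT values, and HT1 and HT3 within the WT range. Its log2 fold change was -0.07 (SE 0.06, limma adjusted p 0.691, 95% interval -0.20 to 0.06). With 1 mouse left out it ranged from -0.109 (without HT3) to -0.027 (without HT2). Smarca2 (ENSMUSG00000024921, chromosome 19, 26605050 to 26778322, plus strand), which encodes the alternative ATPase BRM, ran from 6567 to 7236 in HT and from 6431 to 7074 in WT, and the log2 fold change was 0.02 (SE 0.04, limma adjusted p 0.917, 95% interval -0.07 to 0.10).

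The scaffold genes gave a like picture. Smarcc1 (ENSMUSG00000032481, chromosome 9, 110117708 to 110240178, plus strand) had 2615, 2350, 2916, 2791 and 2498 in HT1 to HT5 and 2720, 2601, 2610, 2882 and 2769 in WT1 to WT5. HT2 and HT5 lay below the WT range and HT3 just above it. The log2 fold change was -0.05 (SE 0.06, limma adjusted p 0.797, 95% interval -0.17 to 0.08). Smarcc2 (ENSMUSG00000025369, chromosome 10, 128459248 to 128490482, plus strand), the scaffold more typical of neurons, ran from 7748 to 8332 in HT and from 7581 to 8606 in WT. The log2 fold change was -0.04 (SE 0.04, limma adjusted p 0.791, 95% interval -0.13 to 0.06). The overlap of the groups came from WT5 (7581) alone, since the other WT mice had 8386 to 8606, and without WT5 the log2 fold change was -0.07 (limma adjusted p 0.696, the lowest over its alternative fits, where the highest was 0.984).

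Taking the 8 members other than Arid1b, 5 had fold changes above 0 and 3 below, from -0.07 to 0.03 on the log2 scale with a median of 0.01, against a median of -0.0035 over all tested genes. Their 95% intervals reached from 87.05% to 112.0% of the WT level at the outermost, the lower bound being that of Smarca4 and the upper that of Brd7. HT2, with the second-highest astrocyte marker score, had the lowest Smarca4 and Smarcc1 and the highest Brd7 of all 10 mice. HT5, with the highest score, lay below the WT range for Smarca4 (5717) and Smarcc1 (2498) but inside it for Brd7 (1663). With the astrocyte score as a covariate, the log2 fold changes were 0.025 for Smarca4, 0.051 for Smarcc1 and -0.065 for Brd7, each of opposite sign to the value above. For Arid1b the value with this covariate was -0.56 (limma adjusted p 0.00501, the highest over its 22 alternative fits, where the lowest was 5.02e-05).

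**Figure D4:**
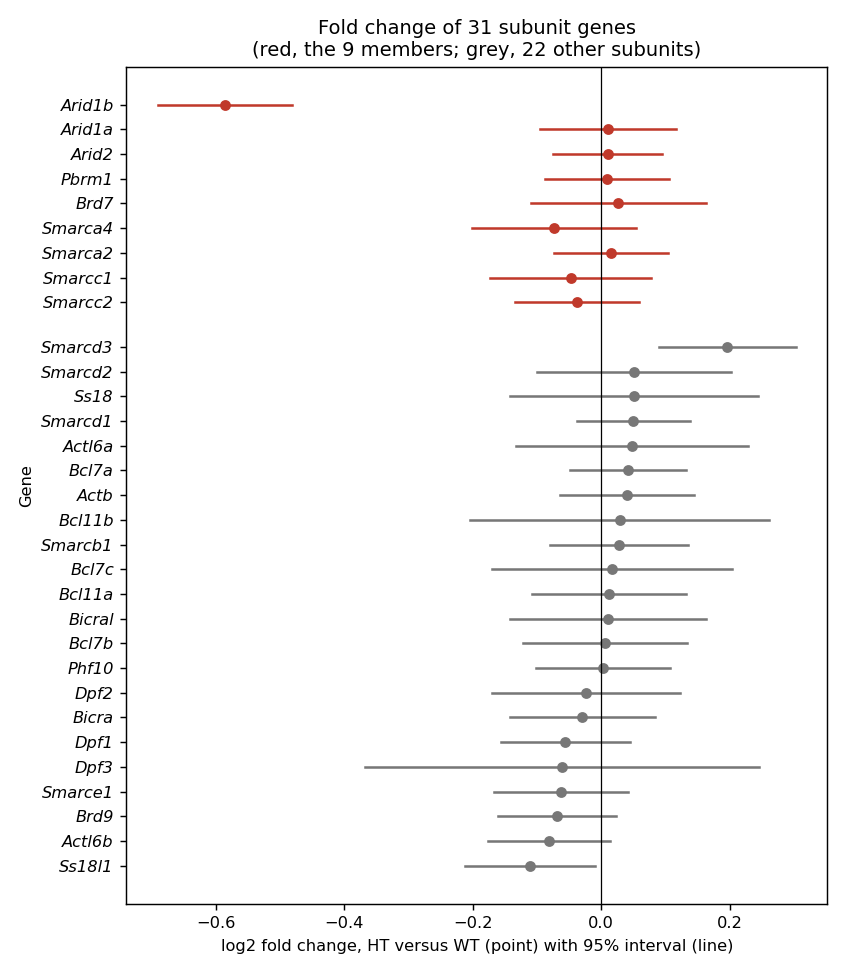
Log2 fold change, HT versus WT, with its 95% interval for the 9 members (red) and 22 other subunit genes (grey). The interval of Arid1b, -0.69 to -0.48, is far from 0, those of the other 8 members all include 0, and those of Smarcd3 and Ss18l1 do not.

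Balances between paralogs and partners were compared within each mouse in 4 further pairs. The log2 ratio of Smarca2 to Smarca4 averaged 0.22 ± 0.10 (SD) over the 5 HT mice against 0.13 ± 0.12 (SD) over the 5 WT mice. The difference of 0.09 was within the spread (exact permutation p = 0.27, adjusted over the 5 pairs 0.675), with a 95% interval of -0.05 to 0.26. With 1 mouse left out it ranged from 0.044 (without WT1) to 0.127 (without HT3). The ratio of Smarcc1 to Smarcc2 differed by -0.01 (exact permutation p = 0.905, adjusted 1, 95% interval -0.17 to 0.16). The ratio of Arid2 to Arid1a, which sets a PBAF against a canonical BAF subunit, had the same mean of -1.15 in both genotypes (exact permutation p = 1, 95% interval of the difference -0.096 to 0.094). For Pbrm1 and Arid2, partners in PBAF, the mean was 0.145 in both (exact permutation p = 1, 95% interval of the difference -0.12 to 0.12).

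**Figure D5:**
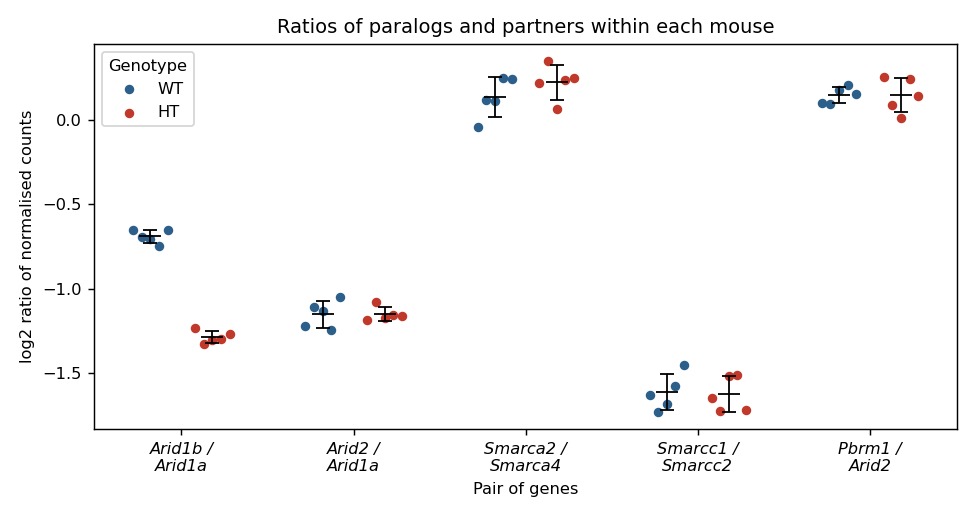
Log2 ratio of normalised counts of 5 pairs of genes in each mouse, WT in blue and HT in red, with black bars for the mean and SD of 5 mice. The genotypes separate for Arid1b to Arid1a (means -1.29 and -0.69) and overlap for the other 4 pairs.

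Levels of the members in WT mice differed by several-fold once divided by length. In normalised counts per kilobase of exon, Smarcc2 was highest at 1497 ± 75.5 (SD, n = 5), followed by Smarca4 at 954.6 ± 46.2 and Smarca2 at 474.8 ± 16.7. Arid1a at 399.9 ± 25.1 and Smarcc1 at 346.8 ± 14.9 came next and were the only neighbours in this order whose WT ranges overlapped. Below them lay Brd7 (312.4 ± 12.5), Pbrm1 (258.1 ± 10.3), Arid1b (225.6 ± 11.2) and Arid2 (192.2 ± 3.25). In HT mice Arid1b, at 150.3, was below Arid2, at 193.6 ± 6.14. With the longest coding transcript as the length, Smarca2 (1144 ± 40.2) stood above Smarca4 (969.4 ± 46.9), the WT ranges of Arid1b (251.0 ± 12.5) and Arid2 (242.6 ± 4.10) overlapped, those of Smarcc1 (450.5 to 499.2) and Brd7 (422.1 to 471.0) did too, and those of Arid1a and Smarcc1 did not, so those steps of the order depend on which length is taken.

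The remaining subunits of BAF, PBAF and the non-canonical form were read from a list of 22 genes, all present and tested. None passed the adjusted threshold in either direction with limma, 2 had an unadjusted p under 0.05 (a share near the 9.23% of all genes tested), and 14 had fold changes above 0 and 8 below, with a median log2 fold change of 0.01. Smarcd3, which encodes an accessory subunit found in neuronal and heart-forming assemblies, had the smallest p. It had 2074, 2271, 2158, 1932 and 2092 in HT1 to HT5 and 1845, 1801, 1752, 1936 and 1846 in WT1 to WT5. All HT values but that of HT4 lay above the WT range. The log2 fold change was 0.20 (SE 0.05), with an unadjusted limma p of 0.00148 and a limma adjusted p of 0.389. The other gene, Ss18l1, encodes the neuronal SS18-like subunit and was named after its values were seen. Its mean was 1487 ± 73.9 (SD) in HT against 1605 ± 49.7 (SD) in WT, and the log2 fold change was -0.11 (SE 0.05, limma adjusted p 0.511, n = 5 per genotype).

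Genes related to the members by domain were examined in the same fit. Among 12 genes with an ARID domain outside these complexes (the Arid3, Arid4 and Arid5 families, Jarid2 and the Kdm5 family), none passed the adjusted threshold with limma and 1 had an unadjusted p under 0.05, a share near that of all genes tested (9.23%). That gene was Kdm5d, a Y-linked histone H3 lysine demethylase, with a mean of 1017 ± 43.1 (SD) in HT against 902.8 ± 68.6 (SD) in WT and a fold change of 0.17 on the log2 scale (SE 0.06, limma adjusted p 0.482). The list had a median log2 fold change of 0.01 and was evenly divided, with 6 genes above and 6 below 0. Among 24 other ATPases of the SNF2 family none passed with limma and 1 had an unadjusted p under 0.05, no more than the 9.23% of all genes. This was Chd7, a chromodomain remodeler mutated in CHARGE syndrome, with 557, 788, 614, 496 and 689 in HT1 to HT5 and 558, 522, 251, 533 and 428 in WT1 to WT5. The groups overlapped, WT3 was lowest by a wide margin, and the log2 fold change was 0.49 (SE 0.19, limma adjusted p 0.504). The median of the list was 0.02.

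Finally, genes whose level followed that of Arid1b or Arid1a from mouse to mouse were listed, as a description without a test, from 13887 genes with a mean of at least 50. The measure was Pearson's r of log2 values over the 10 mice after subtraction of each genotype's mean, so the difference between genotypes did not enter. For Arid1b the 5 highest were Actb (r = 0.969), Pigt (0.925), Kdm4a (0.921), Uba1 (0.919) and Prr12 (0.915). Values of r over 0.9 were found for 0.06% of the genes compared. Actb encodes beta-actin, which besides its place in the cytoskeleton is itself a subunit of BAF complexes, and it differed little between genotypes (log2 fold change 0.04, limma adjusted p 0.792). For Arid1a the 5 highest were Hnrnpa1 (r = 0.935), Chia1 (0.93), Kmt2a (0.916), Actb (0.903) and Dtx1 (0.901). These are the highest of 13887 values over 10 mice and share each library's size factor, and the labels give no litter or batch for the mice.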

How the data were processed

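Per the labels, the authors prepared polyadenylated RNA with a TruSeq Stranded mRNA kit, and the libraries were sequenced in paired-end mode. Per the methods and the submitters' processing notes, reads were quantified with Salmon 1.1.0 on GRCm38 with GC bias correction, summed to genes and divided by DESeq2 1.30.1 size factors. The deposited signal is therefore a normalised count, and a change in total RNA per cell would not be seen. Between 14.1% and 41.0% of low values were whole multiples of a common step (within 0.05 of a read), so reads were not recovered, no count test was run and depth is unknown. P-values set a difference or a correlation against the spread between mice. They take the mice as independent, and the labels give no litter or batch.

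Genotypes and replicate numbers came from the sample titles. The 9 members and all gene lists were chosen with earlier results of these data known. Symbols, positions and exonic lengths came from GENCODE M21, which held 18205 of the 18216 genes. Genes with a mean of at least 10 were tested on log2(value + 1), the scale of every fold change here, with limma 3.58.1 in R 4.3.3 (mean-variance trend, genotype as the factor) and Benjamini-Hochberg adjustment over all 16781 genes. Ratios were tested by exact permutation over all 252 assignments of mice, and correlations by exact permutation within genotype. From the other lists the text names any gene past the adjusted threshold or without overlap and the gene with the smallest p, and for likeness the 5 highest r. The fit was run on simulated data with changes larger than that of any member, so this check does not cover changes as small as theirs. Alternatives were pseudocounts, filters, scalings, variance prior, sample weights, replicate block, marker covariates and omitted mice. Python 3.11.15 was used elsewhere. A marker of 1 list is not reported here and was left out of that list's sum.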

Additional observations from a re-analysis of the deposited data

Results flagged for a closer look

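Within groups of 5 mice, 30 sets of values (each member, the ratio of each pair and the summed Arid1a and Arid1b level, by genotype) were examined for a mouse set apart from the rest, by its gap to the nearest other mouse divided by the range, with a critical value of 0.71. Chance gives about 1.5 such mice in 30 sets, and 1 was found. Smarcc2 in WT5 had a normalised count of 7581, against 8386 to 8606 in the other WT mice, a ratio of 0.786. The HT values, 7748 to 8332, lie between this mouse and the others. Without WT5 the log2 fold change of Smarcc2 was -0.07 in place of -0.04 and did not pass the threshold.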

How the results depend on the processing

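Under all 22 alternative fits Arid1b was lower and past the threshold, and it was the single member past it. With 1 mouse left out its log2 fold change ranged from -0.608 to -0.56, and 3 or 4 genes passed over the whole table, always including the 3 found with all mice. The replicate numbers are shared by different mice (correlation of deviations -0.041 to 0.101 over the 5 same-numbered pairs, with 3 of 5 HT mice correlating best with their own number). With the replicate block Arid1b was at -0.585 and 3 genes passed, and the block changed no call of a member or list. The Arid1b to Arid1a ratio stayed at -0.596 in the sign-flip test within numbers (p 0.0625, the smallest it allows) and at -0.589 without HT2 and HT5 (exact p 0.0179, adjusted 0.0893, again the smallest possible), so both tests were too small to pass. It ranged from -0.61 to -0.586 with 1 mouse left out.

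Fold changes near 0 changed sign without passing the threshold: Arid1a with the striatal covariate (-0.009), Brd7 (-0.065), Smarca4 (0.025) and Smarcc1 (0.051) with the astrocyte covariate, and Brd7 (-0.02), Smarca4 (0.001) and Smarcc1 (0.03) without HT2 and HT5, where the ratios of Smarcc1 to Smarcc2 (0.055) and Pbrm1 to Arid2 (0.021) also did. With 1 mouse left out the ranges were -0.022 to 0.039 for Arid1a, -0.007 to 0.024 for Arid2, -0.009 to 0.074 for Brd7, -0.008 to 0.03 for Pbrm1, -0.005 to 0.031 for Smarca2, -0.109 to -0.027 for Smarca4, -0.085 to -0.007 for Smarcc1 and -0.07 to -0.022 for Smarcc2, and for the ratios -0.024 to 0.025 (Arid2 to Arid1a), -0.027 to 0.032 (Pbrm1 to Arid2), -0.039 to 0.03 (Smarcc1 to Smarcc2) and 0.044 to 0.127 (Smarca2 to Smarca4, lowest without WT1). The cause was not tested. At an unadjusted p under 0.05 the lists had 2 (other subunits), 1 (ARID domain) and 1 (SNF2) genes in place of 0. The summed Arid1a and Arid1b level ranged from 86.7% to 89.8% of WT with 1 mouse left out and was 90.1% with the longest coding transcript as the length.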
